A study of Mus musculus with 16 samples.

Results

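The 59 genes described here carry a cell through mitosis. They were chosen by name, as every row of the expression table whose symbol is on a list of mitotic kinases and cyclins, spindle checkpoint proteins, kinetochore and condensin subunits, spindle motors and cytokinesis proteins. All 59 were found among the 30386 genes of the table, and all 59 passed the filter on low values (more than 1 CPM, the reads of a gene scaled to a common library total, in at least 4 of the 16 samples), which left 12533 genes to be tested. In this account the 59 are sorted into 10 role groups, from mitotic entry to chromosome condensation.

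Mitosis starts when Cdk1 bound to cyclin A or B is switched on by Cdc25 phosphatases, and Plk1 and the Aurora kinases then build the spindle while condensin compacts the chromosomes. Kinetochores assemble on centromeric chromatin that holds the histone variant Cenpa, and the spindle checkpoint holds back the anaphase-promoting complex until every kinetochore is attached. Most of these genes are transcribed late in the cell cycle, so in a mixed culture their RNA is higher in cells in G2 and M, and they are widely used as a readout of dividing cells in the subventricular zone (SVZ), a niche of the adult brain that keeps neural stem cells.

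The samples were neural stem/progenitor cells (NSPCs) from the SVZ of mice 3 months old, kept as proliferating, non-adherent cultures and stably transfected with a control *GFP* transgene (*GFP*-NSPCs, 8 samples) or with *Dbx2*, which encodes a homeobox transcription factor (*Dbx2*-NSPCs, 8 samples). The transgenes sat on expression plasmids that were held in the cells with puromycin, and the study drew on a pair of independently derived lines for each transgene, each grown in 4 experiments. Samples are numbered 1 to 8 in both groups, but the labels do not say which line a number belongs to. The tests treat the 8 cultures of a transgene as separate replicates, although they came from 2 lines. Their p-values therefore measure the spread between these cultures and not between animals or lines. Samples 1 to 4 and samples 5 to 8 stood apart in expression and are called the 2 number sets here.

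Sequencing read the 3' end of transcripts, and the total came to between 1804660 and 3294873 reads per sample. The transgene's own gene was 30.7 to 171 CPM in *GFP*-NSPCs (median 64.4) and 114 to 232 CPM in *Dbx2*-NSPCs (median 147), a log2 fold change of 1.26 (SE 0.32, adjusted p = 0.00978, limma; two-sided exact permutation p = 0.00357 over 12870 splits). The groups overlapped, and *GFP*-NSPCs 1 to 4 held 89.3 to 171 CPM against 136 to 232 CPM in *Dbx2*-NSPCs 1 to 4. *GFP*-NSPCs 5 to 8 held 30.7 to 39.5 CPM against 114 to 155 CPM. How much of this came from the transgene and how much from the cells' own gene was not tested. All 8 stem and progenitor markers examined, among them *Sox2*, *Nes* and *Egfr*, were above 3 reads in every sample, whereas *Mog* of 6 oligodendrocyte markers, *Aif1* and *Tmem119* of 6 microglial markers and *Cldn5* and *Cdh5* of 6 endothelial and mural markers were at 0 in all samples. The 8 stem and progenitor markers summed to 6334 to 6982 CPM in *GFP*-NSPCs and 5331 to 6510 CPM in *Dbx2*-NSPCs. In the same order of groups, 6 neuroblast and neuron markers summed to 17.8 to 64.2 and 19.4 to 43.6 CPM, 6 oligodendrocyte markers to 3.68 to 8.87 and 7.06 to 15.3 CPM, and 6 microglial markers to at most 1.84 and 1.96 CPM. The summed level of 5 astrocyte markers ran from 668 to 2111 CPM in *GFP*-NSPCs and from 408 to 1065 CPM in *Dbx2*-NSPCs, and that of 4 ependymal markers from 10.3 to 25.8 and from 21.9 to 44.9 CPM. The 6 endothelial and mural markers summed to at most 2.82 CPM in *GFP*-NSPCs and to 3.58 to 10.9 CPM in *Dbx2*-NSPCs. The part of these in the results below was not tested.

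A mitotic score was computed for each sample by averaging log2(CPM + 0.5) over the 59 genes and subtracting the average of every gene tested. The score ran from 1.72 to 2.22 in *GFP*-NSPCs (mean 2.03 ± 0.157, SD, n = 8) and from 1.52 to 2.24 in *Dbx2*-NSPCs (mean 1.79 ± 0.23, SD, n = 8), a difference of -0.24. The groups overlapped. At equal numbers the *Dbx2*-NSPC sample was the lower one in 7 of 8 comparisons, and number 8 went the other way with a difference of 0.20. Equal numbers are not shown to pair samples, so these comparisons are a description. With medians in place of averages the group difference was -0.15. The *Dbx2*-NSPC sample was then lower at 6 of 8 numbers, and higher at numbers 1 (0.017) and 8 (0.21). No p-value is given for the score, because the genes were chosen with results of these data known.

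**Figure D1:**
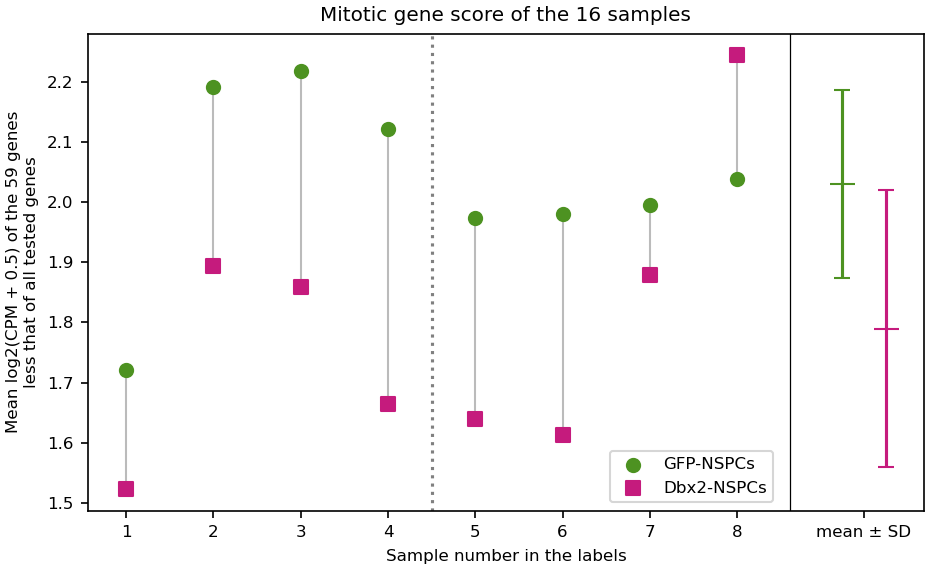
Mitotic score of each sample (y axis, log2 scale) against the sample number in the labels (x axis), with green circles for *GFP*-NSPCs, magenta squares for *Dbx2*-NSPCs, grey lines joining equal numbers, and mean ± SD (n = 8) at the right. The *Dbx2*-NSPC sample is below its *GFP*-NSPC counterpart at numbers 1 to 7 and above it at number 8, where it has the highest score of all 16.

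In these genes 2 samples stood apart. *Dbx2*-NSPC sample 8 had the highest value of its group for 45 of the 59 genes (76.3%), against 13.7% of all tested genes, and its score of 2.24 was the highest of the 16. *GFP*-NSPC sample 1 had the lowest value of its group for 32 of the 59 (54.2%), against 20.7% of all tested genes, and its score of 1.72 was the lowest of the controls. Their depths, 2961770 and 2482209 reads, were within the range of the other samples. The score difference was -0.30 without *Dbx2*-NSPC sample 8 and -0.28 without *GFP*-NSPC sample 1. The variance of each of the 59 genes over the samples was split into parts, and the median of each part was taken separately. These medians were 18.6% for the transgene, 4.47% for the number set and 4.31% for their interaction. The median for the residual within the 4 combinations of transgene and set was 63.3%. They do not describe any single gene and need not add up to the whole. Over all tested genes those medians were 10.9%, 13.0%, 4.62% and 51.6%.

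Per gene, 6 of the 59 were lower in *Dbx2*-NSPCs and 0 were higher at an adjusted p under 0.05 (limma on log2(CPM + 0.5), adjusted over all tested genes). The 6 make up 10.2% of the 59, where 7.78% of all tested genes were called lower and 8.03% higher, so this share lay near the background. The 6 genes were *Smc4*, *Bub1*, *Ccna2*, *Ccnb1*, *Aurkb* and *Cenpa*, in order of p. Of the 59, 19 had an unadjusted p under 0.05 (32.2%, against 29.2% of all tested genes). On the recovered reads, edgeR called 4 genes lower (6.78%) and 0 higher, against 7.0% and 8.38% of all tested genes. DESeq2 called 7 lower (11.9%) and 0 higher, against 8.11% and 9.42%. With the sample number as a block, 16 genes (27.1%, against 10.9% of all tested genes) were lower and 2 higher (against 10.8%), and the 6 above were again among them. The labels do not say that equal numbers pair samples. With the number set as a covariate 12 were lower (20.3%, against 12.2%) and 1 higher (against 12%). In edgeR with the number set 9 were lower (15.3%, against 10.9%) and 2 higher, where 2942 of the 12533 tested genes were called in either direction. The direction was shared more widely than the calls: 52 of the 59 fold changes (88.1%) were negative, against 52.7% of all tested genes, and their median was -0.22 on the log2 scale against -0.022. The study's own test, in edgeR with the line as a covariate and a false discovery rate under 0.05, reported *Cdk1* and cyclin A as lower. Ranking all expressed genes by fold change, it also found the G2M checkpoint and E2F target gene sets enriched among the lower genes. From bulk RNA alone, a different share of cells in each phase and a different level of each RNA per cell cannot be told apart. By flow cytometry, the study found more cells in G2/M in both *Dbx2*-NSPC lines. It also reported fewer cells past early prophase, by phosphorylated histone H3, and no detectable change in cells with the proliferation marker Ki67. How these relate to the RNA values was not tested.

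No gene of the 59 separated the 8 *Dbx2*-NSPC from the 8 *GFP*-NSPC samples without overlap, where 3.41% of all tested genes did. At equal numbers, *Ccna2*, *Bub1*, *Cenpa*, *Kif15* and *Smc4* were lower in the *Dbx2*-NSPC sample in all 8 comparisons (5 of 59, 8.47%, against 7.47% of all tested genes). In at least 7 of the 8 comparisons this held for 23 of 59 (39.0%, against 16.7% of all tested genes). *Smc4*, *Bub1* and *Ccna2* stayed under an adjusted p of 0.05 whichever of the 16 samples was left out, with highest values of 0.00598, 0.0181 and 0.0346. The other 3 calls depended on which samples entered. *Ccnb1* had an adjusted p above 0.05 in 6 of the 16 omissions (up to 0.0636, without *GFP*-NSPC sample 3, 4, 6 or 7 or *Dbx2*-NSPC sample 1 or 6). *Aurkb* had one in 10 (up to 0.075, without *GFP*-NSPC sample 2, 3, 4, 6 or 7 or *Dbx2*-NSPC sample 1, 3, 4, 5 or 7), and *Cenpa* in 10 (up to 0.0749, without *GFP*-NSPC sample 2 to 8 or *Dbx2*-NSPC sample 1, 3 or 5). Without *Dbx2*-NSPC sample 8 the number of genes called lower was 15 (25.4%) and the number higher 0, against 7.29% and 7.30% of all tested genes. Without *GFP*-NSPC sample 1 they were 14 (23.7%) and 0, against 9.0% and 8.63%. Without *Dbx2*-NSPC sample 2 the number lower was 10 (16.9%). It was 3 (5.08%) without *GFP*-NSPC sample 3, 4 or 6 or *Dbx2*-NSPC sample 1. Over the omissions 6.51% to 9.0% of all tested genes were called lower. Without both samples numbered 8, in the fit with the block, 29 of the 59 (49.2%, against 9.69% of all tested genes) were lower and 0 higher (against 9.19%). Omitting number 8 was chosen after its values were seen.

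**Figure D2:**
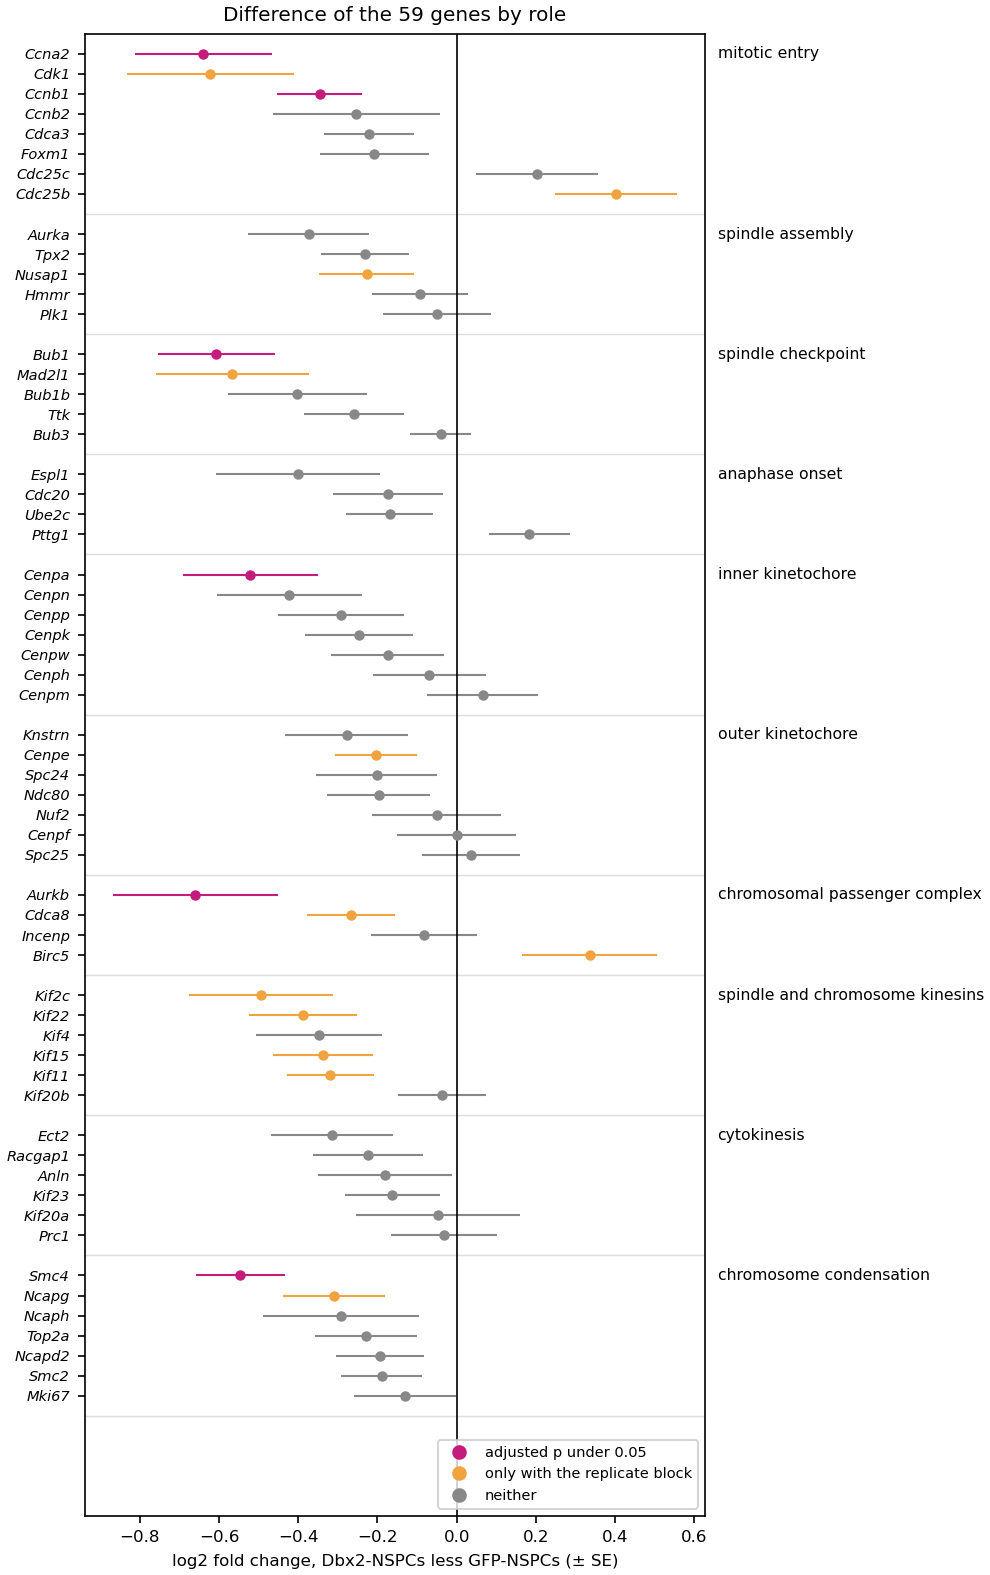
Log2 fold change of each of the 59 genes (x axis, *Dbx2*-NSPCs less *GFP*-NSPCs, bars ± SE from limma, 8 samples a group), grouped by role and sorted within each group. Magenta marks the 6 genes with an adjusted p under 0.05, orange those that passed only with the replicate block, and grey the rest. A total of 52 points lie left of 0, and the outermost on the right are *Cdc25b* and *Birc5*.

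The promoters of these genes are known for 2 short elements, the CCAAT box bound by NF-Y and the cell cycle homology region (CHR) bound by MuvB complexes with B-Myb or as the DREAM repressor. RefSeq promoter windows of 300 bases (250 before the start of transcription to 50 after it, GRCm38.p6) were at hand for 50 of the 59 genes, in 55 windows. CCAAT, on either strand, was in 42 of the 55 windows (76.4%) against 37.4% of 32851 windows of all genes, and TTTGAA or TTCGAA, the CHR letters searched on either strand, in 41 (74.5%) against 19.2%. Both elements were in 36 windows (65.5%), against 7.52% of all windows. The 33 genes with both had a median log2 fold change of -0.22, and the 17 with a window that lacked one or both a median of -0.23. A match of letters is a description and not a shown binding site.

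The promoters of 7 genes are printed to set genes called lower in *Dbx2*-NSPCs (*Ccnb1*, *Bub1*, *Cenpa*) and *Cdk1*, which just missed the threshold, beside the 2 genes whose difference changed between the number sets (*Ccnb2*, *Cdc25b*) and *Birc5*, which had a positive fold change. Each runs 5' to 3' on the gene's strand from 120 bases before to 30 bases after the start, with CCAAT (or ATTGG, its reverse complement) and the CHR letters in capitals.
Cdk1 (chr10:69352883-69353032, minus strand): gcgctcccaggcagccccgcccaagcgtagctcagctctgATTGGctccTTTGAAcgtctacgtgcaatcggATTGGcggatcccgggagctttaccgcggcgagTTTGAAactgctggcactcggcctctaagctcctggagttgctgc
Ccnb1 (chr13:100786457-100786606, minus strand): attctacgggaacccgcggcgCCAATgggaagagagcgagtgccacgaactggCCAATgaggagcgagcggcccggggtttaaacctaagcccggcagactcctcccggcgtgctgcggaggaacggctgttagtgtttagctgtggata
Bub1 (chr2:127831830-127831979, minus strand): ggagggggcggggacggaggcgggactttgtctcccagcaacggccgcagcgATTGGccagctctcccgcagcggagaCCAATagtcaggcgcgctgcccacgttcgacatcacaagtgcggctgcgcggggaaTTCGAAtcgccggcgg
Cenpa (chr5:30666766-30666915, plus strand): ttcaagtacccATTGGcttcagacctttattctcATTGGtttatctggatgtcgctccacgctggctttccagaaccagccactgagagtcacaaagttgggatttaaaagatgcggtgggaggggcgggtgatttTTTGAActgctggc
Ccnb2 (chr9:70421525-70421674, minus strand): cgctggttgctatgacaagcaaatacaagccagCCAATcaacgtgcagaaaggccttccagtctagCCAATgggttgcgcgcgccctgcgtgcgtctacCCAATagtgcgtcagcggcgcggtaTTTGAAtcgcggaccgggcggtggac
Cdc25b (chr2:131186828-131186977, plus strand): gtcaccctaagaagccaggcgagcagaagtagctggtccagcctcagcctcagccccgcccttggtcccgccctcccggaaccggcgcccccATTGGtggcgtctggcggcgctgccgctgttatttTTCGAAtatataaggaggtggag
Birc5 (chr11:117849117-117849266, plus strand): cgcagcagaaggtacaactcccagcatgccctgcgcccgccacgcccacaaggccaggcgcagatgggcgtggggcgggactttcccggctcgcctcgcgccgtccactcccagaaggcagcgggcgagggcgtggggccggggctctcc
In the printed stretches *Cdk1* holds 2 of each element, with CHR letters at -71 and -15 from the start. *Bub1*, *Cenpa* and *Ccnb2* each pair 2 or 3 CCAAT boxes with 1 CHR just after the start, at 15, 17 and 5. *Cdc25b* has 1 of each, at -28 and 8, *Ccnb1* has 2 CCAAT boxes at -99 and -67 and no CHR letters, also in the full window, and *Birc5* has neither, also in the full window. Among the printed genes, *Ccnb1* was called lower and held no CHR letters, and *Cdc25b*, with both elements, had the highest fold change of the 59 but was not called. *Smc4*, *Ccna2* and *Aurkb*, also called lower, had no promoter window at hand. A link between the elements and the fold changes was not tested.

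The mitotic entry group holds the cyclins, Cdk1, its activating phosphatases, the transcription factor *Foxm1* and *Cdca3*. Of its 8 genes 2 were called lower and 6 fold changes were negative, and the log2 fold changes ran from -0.64 to 0.40. In this and the other role groups, such counts are to be read against the shares of all tested genes. Of those, 7.78% were called lower, 10.9% were called lower with the block, and 52.7% had negative fold changes. *Ccna2*, cyclin A2, which acts in S phase and at mitotic entry (chr3:36564865-36572150, GRCm38), ran from 56.8 to 108 CPM in *GFP*-NSPCs (median 73.8) and from 32.6 to 72.6 CPM in *Dbx2*-NSPCs (median 46.7). Its log2 fold change was -0.64 (SE 0.17, adjusted p = 0.0157). The 2 groups overlapped through the 3 highest *Dbx2*-NSPC samples, 2, 3 and 8, and the lowest controls. *Ccna2* overlaps *Exosc9* (mean 101 CPM) on the other strand, and since the strand used in counting is not given, reads of both may be mixed.

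*Ccnb1*, cyclin B1, the main partner of Cdk1 in mitosis (chr13:100778650-100786570), ran from 94.3 to 116 CPM in *GFP*-NSPCs (median 108) and from 56.3 to 103 CPM in *Dbx2*-NSPCs (median 90.4). The fold change was -0.35 on the log2 scale (SE 0.11, adjusted p = 0.0333), and the SD was 8.03 CPM among the controls and 15.4 CPM among the *Dbx2*-NSPC samples, whose lowest value was sample 4. *Cdk1*, the kinase that drives entry into mitosis (chr10:69335146-69352938), had a larger difference that just missed the threshold in the main fit. Its level was 108 to 221 CPM in *GFP*-NSPCs (median 163) and 43.8 to 154 CPM in *Dbx2*-NSPCs (median 111), with a log2 fold change of -0.62 (SE 0.21, adjusted p = 0.0509, 0.0165 with the block). The adjusted p was 0.00992 in limma with the number set as a covariate, 0.0338 in DESeq2 and 0.0573 in edgeR. The lowest value belonged to *Dbx2*-NSPC sample 4, and the controls 5 to 8 were all above every *Dbx2*-NSPC sample.

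*Foxm1*, a transcription factor of G2/M genes, had a log2 fold change of -0.21 (SE 0.14, adjusted p = 0.336), with 45.1 to 78 CPM in *GFP*-NSPCs and 32.9 to 68.2 CPM in *Dbx2*-NSPCs. *Cdc25b*, a phosphatase that activates Cdk1, whose promoter is printed above, ran from 31.6 to 76.5 CPM in *GFP*-NSPCs (median 46) and from 52.1 to 75 CPM in *Dbx2*-NSPCs (median 63.2), 0.40 on the log2 scale (SE 0.15), with an adjusted p of 0.0855 and of 0.0385 with the block. The *Dbx2*-NSPC sample was higher at 7 of 8 numbers, but the highest value of all was control 2, and *Cdc25b* overlaps *Spef1* on the other strand. The related phosphatase *Cdc25c* had 0.20 (SE 0.15) and *Cdca3*, an adaptor linked to the loss of the Cdk1 inhibitor Wee1, -0.22 (SE 0.11), and neither passed the test.

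**Figure D3:**
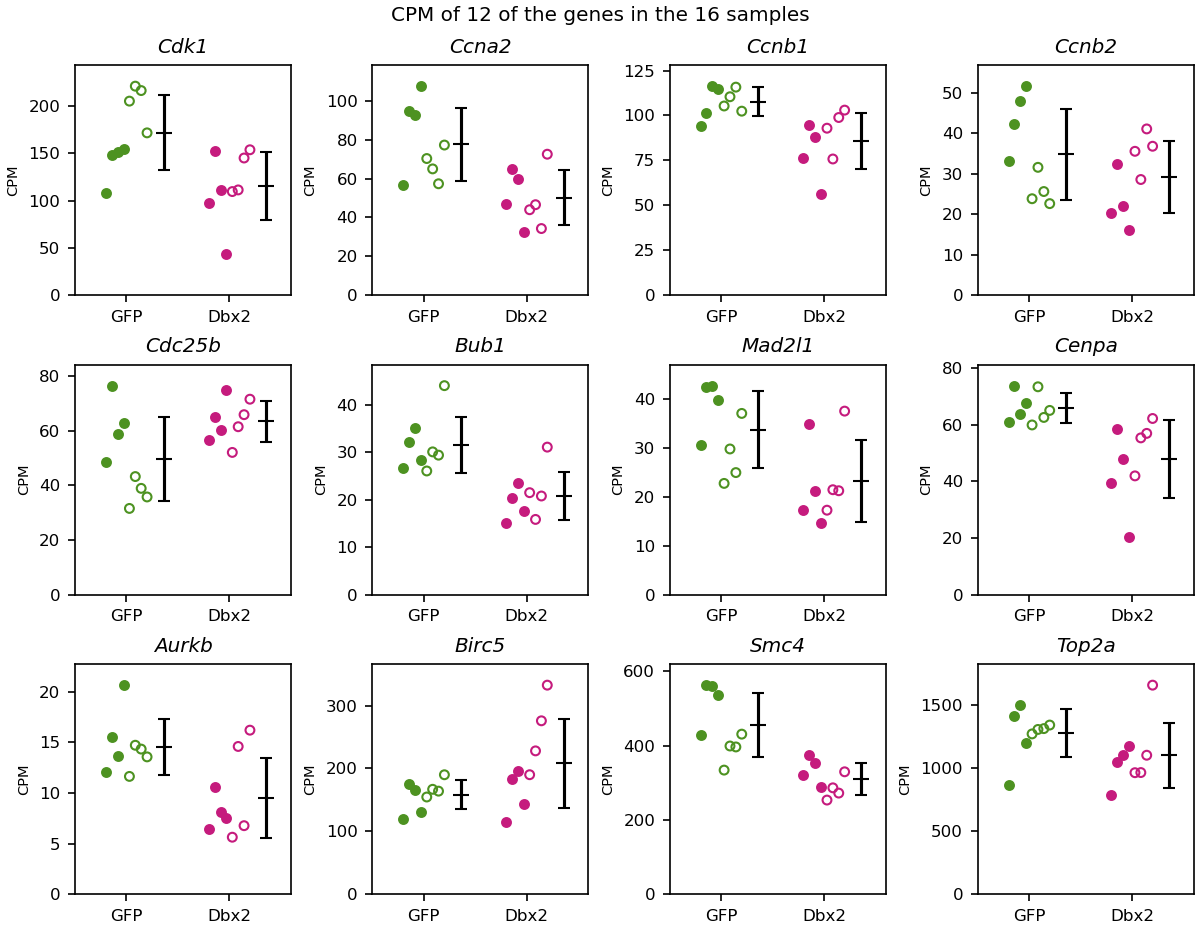
CPM (y axes, each from 0) of 12 of the genes in the 8 *GFP*-NSPC (green) and 8 *Dbx2*-NSPC (magenta) samples, with filled circles for numbers 1 to 4, open circles for numbers 5 to 8, and black bars for mean ± SD (n = 8). *Smc4*, *Bub1* and *Ccna2* are lower in *Dbx2*-NSPCs in both number sets, while *Ccnb2* is lower in the filled and higher in the open circles.

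The 5 spindle assembly genes all had negative fold changes, from -0.37 to -0.049, and none passed the test. *Aurka*, the centrosomal Aurora kinase, was 20.6 to 50.6 CPM in *GFP*-NSPCs (median 42) and 24.4 to 36.1 CPM in *Dbx2*-NSPCs (median 29.5), with a log2 fold change of -0.37 (SE 0.15, adjusted p = 0.107). Its lowest value of all 16 belonged to a control, sample 8, without which the adjusted p was 0.00782. *Tpx2*, which activates Aurka on the spindle, had -0.23 (SE 0.11, adjusted p = 0.176). *Nusap1*, a spindle-binding protein, had -0.23 on the log2 scale (adjusted p = 0.218, 0.0419 with the block) and overlaps *Oip5* on the other strand. *Hmmr*, a spindle protein that also binds hyaluronan, had -0.093 (SE 0.12). *Plk1*, the Polo kinase, showed next to no difference, -0.049 with a 95% interval from -0.34 to 0.24.

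The spindle checkpoint had the lowest median of the 10 groups, -0.40 on the log2 scale, with all 5 fold changes negative and 1 called. *Bub1*, the checkpoint kinase at the kinetochore (chr2:127801122-127831865), ran from 26 to 44 CPM in *GFP*-NSPCs (median 29.7) and from 15.1 to 31.1 CPM in *Dbx2*-NSPCs (median 20.6). It fell by 0.61 on the log2 scale (SE 0.15, adjusted p = 0.00785). Apart from *Dbx2*-NSPC sample 8, every *Dbx2*-NSPC value was below every control. *Mad2l1*, which encodes Mad2, the inhibitor of Cdc20, was 22.7 to 42.7 CPM in *GFP*-NSPCs (median 33.8) and 14.7 to 37.5 CPM in *Dbx2*-NSPCs (median 21.2), a log2 fold change of -0.57 (SE 0.19, adjusted p = 0.0515, 0.0175 with the block). *Bub1b*, which encodes BubR1 of the mitotic checkpoint complex, had -0.40 (SE 0.18, adjusted p = 0.133) and *Ttk*, the Mps1 kinase at the top of the checkpoint, -0.26 (SE 0.13, adjusted p = 0.183). *Bub3*, the checkpoint subunit with the smallest difference of the group, had -0.04 (95% interval from -0.20 to 0.12).

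Genes of anaphase onset did not pass the test in either fit. *Espl1*, separase, had a log2 fold change of -0.40 (SE 0.21, adjusted p = 0.21) and *Pttg1*, securin, which holds separase inactive, one of 0.18 (SE 0.10, adjusted p = 0.246). *Cdc20*, the activator of the anaphase-promoting complex, was 74.8 to 132 CPM in *GFP*-NSPCs and 69.7 to 132 CPM in *Dbx2*-NSPCs, with -0.17 on the log2 scale (95% interval from -0.46 to 0.12). *Cdc20* overlaps *Elovl1* on the other strand. *Ube2c*, a ubiquitin-conjugating enzyme of that complex, had -0.17 (SE 0.11).

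At the inner kinetochore, 6 of 7 fold changes were negative and 1 gene was called. *Cenpa*, the centromeric histone H3 variant (chr5:30666777-30674830), ran from 59.9 to 73.7 CPM in *GFP*-NSPCs (median 64.3) and from 20.4 to 62.1 CPM in *Dbx2*-NSPCs (median 51.6). The controls lay close together and only 1 *Dbx2*-NSPC sample, number 8, reached into their range. It fell by 0.52 on the log2 scale (SE 0.17, adjusted p = 0.0437). *Cenpn*, a reader of the Cenpa nucleosome, had -0.42 (SE 0.18, adjusted p = 0.13), and the other members of the constitutive centromere network, *Cenph*, *Cenpk*, *Cenpm*, *Cenpp* and *Cenpw*, lay between -0.29 and 0.066. *Cenpk* overlaps *Ppwd1* on the other strand, which at a mean of 51.6 CPM was the higher of the pair.

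At the outer kinetochore, which binds microtubules, none of 7 genes passed the test and 1 passed with the block. The 4 subunits of the Ndc80 complex, *Ndc80*, *Nuf2*, *Spc24* and *Spc25*, had log2 fold changes of -0.20, -0.051, -0.20 and 0.036 with SE of 0.12 to 0.16. *Cenpe*, the kinetochore kinesin, had -0.20 (SE 0.10, adjusted p = 0.202, 0.0485 with the block) and *Knstrn*, a small kinetochore-associated protein, -0.28 (SE 0.16, adjusted p = 0.249). *Cenpf*, a large outer kinetochore protein, had a difference that rounded to 0, with a 95% interval from -0.31 to 0.31.

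The 4 subunits of the chromosomal passenger complex, which corrects faulty attachments and guides cytokinesis, had fold changes of both signs. *Aurkb*, its kinase (chr11:69045647-69051664), ran from 11.6 to 20.7 CPM in *GFP*-NSPCs (median 14) and from 5.63 to 16.2 CPM in *Dbx2*-NSPCs (median 7.83), the lowest fold change of the 59 at -0.66 (SE 0.21, adjusted p = 0.0363). In *Dbx2*-NSPCs, samples 6 and 8 were within the control range and the other 6 below it. *Cdca8*, borealin, had -0.27 (SE 0.11, adjusted p = 0.112, 0.0245 with the block), and *Incenp*, the scaffold, -0.082 (SE 0.13). *Birc5*, survivin, whose printed promoter held neither element, ran from 119 to 190.0 CPM in *GFP*-NSPCs (median 165) and from 114 to 333 CPM in *Dbx2*-NSPCs (median 193). Its log2 fold change was 0.34 (SE 0.17), with an adjusted p of 0.2 and of 0.0257 with the block. *Dbx2*-NSPC samples 3 and 5 to 8 were above the highest control, sample 5 by less than 1 read, and the groups overlapped through samples 1, 2 and 4. The difference between *Birc5* and *Aurkb* was not tested.

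All 6 mitotic kinesins had negative fold changes, with a median of -0.34, and 4 of them passed only with the block. *Kif11*, the motor that pushes spindle poles apart, was 56 to 97.4 CPM in *GFP*-NSPCs (median 70.2) and 47.2 to 72.6 CPM in *Dbx2*-NSPCs (median 57.3), with -0.32 on the log2 scale (SE 0.11, adjusted p = 0.0567, 0.0302 with the block). *Kif22*, a motor on chromosome arms, had -0.39 (SE 0.14, adjusted p = 0.0576, 0.0373 with the block). *Kif15*, which backs up Kif11, had -0.34 (adjusted p = 0.0754, 0.00579 with the block), and *Kif2c*, which depolymerises microtubules at centromeres, -0.49 (adjusted p = 0.0722, 0.0403 with the block). The chromokinesin *Kif4* had -0.35 (SE 0.16) and *Kif20b*, a motor of the spindle midzone, -0.037 (SE 0.11), and neither passed in either fit. *Kif4* overlaps *Pdzd11* on the other strand, which at a mean of 64.5 CPM was the higher of the pair.

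The 6 cytokinesis genes also had negative fold changes in the main fit, from -0.32 to -0.032, and none passed in either fit. In some other settings *Prc1* and *Kif20a* turned positive. *Prc1* was at 0.26 in numbers 5 to 8 alone and at 0.014 under quantile scaling, and *Kif20a* reached 0.042 without *Dbx2*-NSPC sample 5. *Ect2*, the exchange factor that activates RhoA at the cleavage furrow, had -0.32 (SE 0.15, adjusted p = 0.183), and *Racgap1*, the centralspindlin subunit that recruits it, -0.22 (SE 0.14, adjusted p = 0.303). The motors *Kif23* and *Kif20a*, the midzone bundler *Prc1* and the contractile ring scaffold *Anln* had -0.16, -0.046, -0.032 and -0.18, with SE of 0.12 to 0.21. *Kif20a* overlaps *Cdc23* on the other strand, which at a mean of 42.0 CPM was the higher of the pair.

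Condensin and the other chromosome genes had negative fold changes in 7 of 7, with 1 called. *Smc4*, an ATPase core subunit of condensin (chr3:69004738-69034623), had the smallest p of the 59. It ran from 334 to 563 CPM in *GFP*-NSPCs (median 430.2) and from 253 to 376 CPM in *Dbx2*-NSPCs (median 304), a log2 fold change of -0.55 (SE 0.11, adjusted p = 0.00226). Within each number set every *Dbx2*-NSPC sample was below every control, and the sets differed in level. The other ATPase, *Smc2*, had -0.19 (SE 0.10, adjusted p = 0.231), and the condensin I subunits *Ncapd2*, *Ncapg* and *Ncaph* had -0.19, -0.31 and -0.29. *Ncapg* passed with the block (adjusted p = 0.0377, 0.113 without it). The miRNA genes *Mir15b* and *Mir16-2* lie inside *Smc4* on the same strand, and *Lcorl* (mean 65.3 CPM) overlaps *Ncapg* on the other.

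*Top2a*, topoisomerase II alpha, ran from 861 to 1501 CPM in *GFP*-NSPCs (median 1309) and from 785 to 1656 CPM in *Dbx2*-NSPCs (median 1074), with a log2 fold change of -0.23 (SE 0.13, adjusted p = 0.25). *Mki67*, which encodes the proliferation marker Ki67, ran from 276 to 516 CPM (median 432) and from 287 to 518 CPM (median 355), with -0.13 (95% interval from -0.40 to 0.14). Neither passed the test, and for both *Dbx2*-NSPC sample 8 was the highest of all 16.

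**Figure D4:**
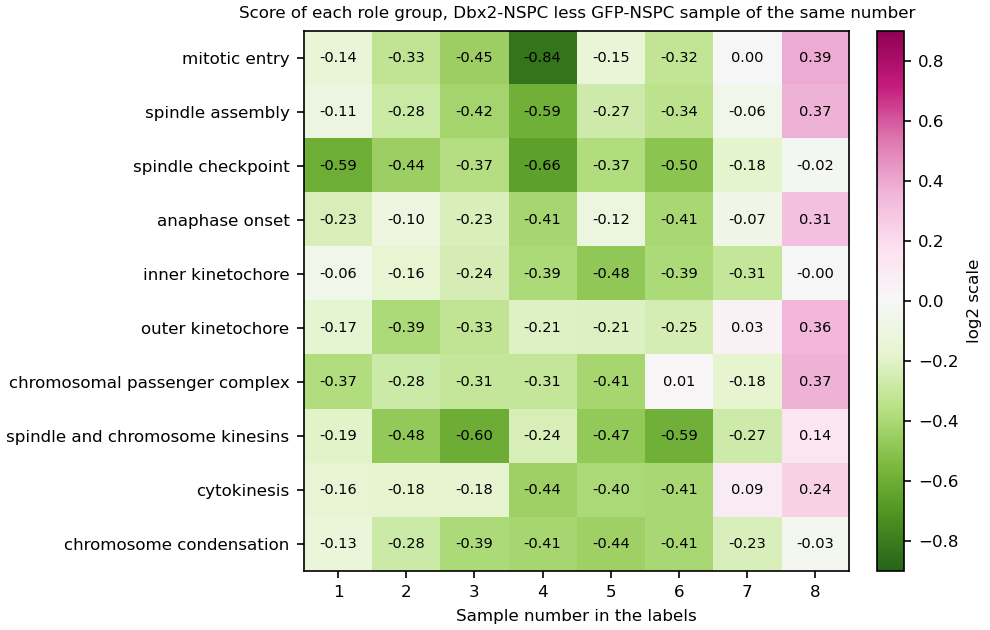
Score of each role group (rows) in the *Dbx2*-NSPC sample less that in the *GFP*-NSPC sample of the same number (columns), on the log2 scale, with green below 0 and magenta above 0. Spindle checkpoint, inner kinetochore and chromosome condensation are below 0 in all 8 columns, and the column of number 8 is above 0 in the other 7 groups.

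By role group, the spindle checkpoint, inner kinetochore and chromosome condensation scores were lower in the *Dbx2*-NSPC sample at all 8 numbers, although at number 8 the differences were only -0.022, -0.0041 and -0.030. The other 7 groups were above 0 at number 8, by 0.14 for the kinesins up to 0.39 for mitotic entry. Mitotic entry had the widest span, down to -0.84 at number 4.

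Samples 1 to 4 and 5 to 8 were then compared, to ask whether the difference was the same in both. Fitted alone, numbers 1 to 4 gave 8 genes lower (13.6%, against 7.37% of all tested genes) and 0 higher (against 8.19%). The median log2 fold change of the 59 was -0.28 (against -0.037), and 52 were negative (88.1%, against 53.9%). Numbers 5 to 8 gave 4 lower (6.78%, against 11.7%) and 2 higher (against 11.5%). There the median of the 59 was -0.15 (against -0.012), and 46 were negative (78.0%, against 51.2%). Both sets had a negative fold change for 42 of the 59, a count not made for all tested genes. For 46 of the 59 the value in numbers 5 to 8 was above that in numbers 1 to 4, against 6557 of the 12533 tested genes. A test of the difference itself, the transgene by set term of limma, called 2 of the 59 (against 9.44% of all tested genes), *Ccnb2* and *Cdc25b*.

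*Ccnb2*, cyclin B2, was 33.04, 42.32, 47.9 and 51.65 CPM in *GFP*-NSPCs 1 to 4 and 20.23, 32.47, 22.14 and 16.15 CPM in *Dbx2*-NSPCs 1 to 4. In numbers 5 to 8 it was 23.83, 31.59, 25.61 and 22.62 CPM in *GFP*-NSPCs and 35.55, 28.58, 41.08 and 36.8 CPM in *Dbx2*-NSPCs. So every *Dbx2*-NSPC sample was below every control in the first set, and 3 of 4 were above every control in the second. The log2 fold changes were -0.95 (SE 0.21, adjusted p = 0.0101) and 0.45 (SE 0.15, adjusted p = 0.0517). They differed by 1.4 (95% interval from 0.85 to 1.95, adjusted p = 0.000767), and the difference stayed called whichever sample was left out (adjusted p up to 0.00312). Pooled over both sets *Ccnb2* had a log2 fold change of -0.25 (SE 0.21, adjusted p = 0.46).

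*Cdc25b* was 61.8 ± 11.5 CPM in *GFP*-NSPCs 1 to 4 and 64.2 ± 8 CPM in *Dbx2*-NSPCs 1 to 4 (SD, n = 4). In numbers 5 to 8 it was 37.4 ± 4.93 and 62.8 ± 8.23 CPM (SD, n = 4), with no overlap. The controls of the second set were lower than those of the first, while the *Dbx2*-NSPC samples of both were level. The log2 fold changes of 0.064 and 0.74 differed by 0.68 (95% interval from 0.25 to 1.1, adjusted p = 0.035), but in 11 of 16 omissions of a single sample the adjusted p was above 0.05 (up to 0.0929), among them those of *GFP*-NSPC samples 2, 3, 4, 5 and 8 and *Dbx2*-NSPC samples 1, 2, 3, 6, 7 and 8. With the block, *Birc5*, *Prc1* and *Cenpw* were called as well (5 of 59 against 10.4% of all tested genes, adjusted p = 0.03, 0.00867 and 0.0283). *Birc5* had 0.095 in the first set and 0.58 in the second, *Prc1* -0.32 and 0.26, and *Cenpw*, of the histone-fold part of the inner kinetochore, 0.12 and -0.47.

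**Figure D5:**
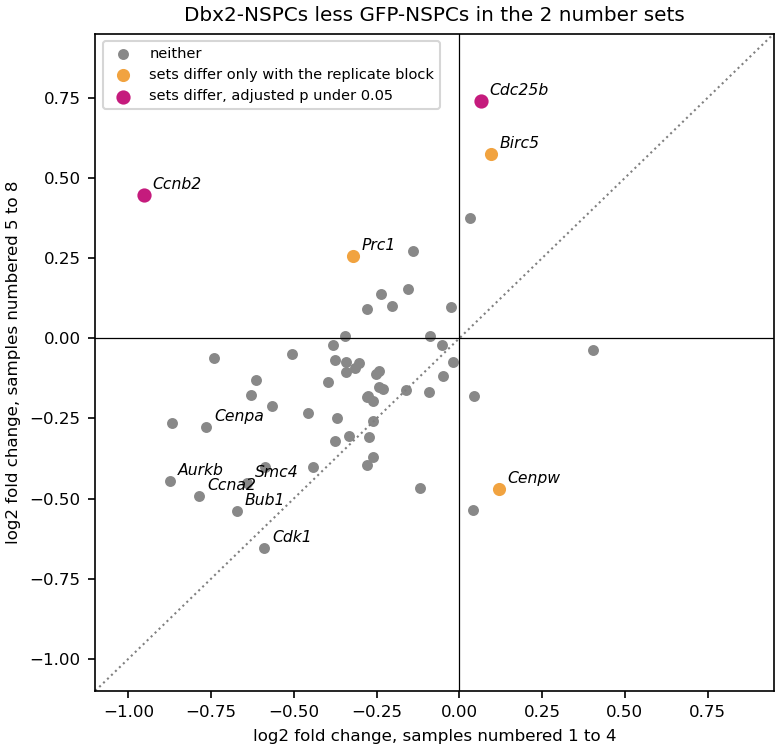
Log2 fold change of each of the 59 genes in samples 5 to 8 (y axis) against that in samples 1 to 4 (x axis), each *Dbx2*-NSPCs less *GFP*-NSPCs over 4 and 4 samples, with a dotted line of equality. Magenta marks the genes whose 2 values differed, *Ccnb2* and *Cdc25b*, orange those that differed only with the replicate block, and 42 points lie below 0 on both axes.

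*Smc4* was the gene called lower in both sets alone, with -0.64 (SE 0.12, adjusted p = 0.00312) and -0.45 (SE 0.096, adjusted p = 0.00358), and the difference between the sets had a 95% interval from -0.13 to 0.51. *Cdk1* had -0.59 (SE 0.29, adjusted p = 0.207) in the first and -0.66 (SE 0.12, adjusted p = 0.00127) in the second. The error in the first set, which holds the sample at 43.8 CPM, was the larger, and the difference between the sets had a 95% interval from -0.73 to 0.59.

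The surrounding machinery was counted from 8 lists of 164 genes, of which 163 were tested, in the same fit. Of these, 17 were lower (10.4%) and 4 higher (2.45%), against 7.78% and 8.03% of all tested genes. Negative fold changes made up 79.1% (against 52.7%), with a median of -0.20 on the log2 scale. With the block 32 were lower (19.6%, against 10.9%) and 8 higher (against 10.8%). The share called lower in the single lists ran from 0% to 20.6%, to be read against the same 7.78%. In the 28 tested genes of the other kinetochore and checkpoint list 2 were lower, *Mis12* (-0.42, SE 0.11, adjusted p = 0.013), of the complex that links the inner and outer kinetochore, and *Ska2* (-0.38, SE 0.10, adjusted p = 0.0141), of the Ska complex. Of 17 genes of the anaphase-promoting complex, *Ube2s*, its chain-elongating enzyme, was lower (-0.71, SE 0.21, adjusted p = 0.027) and *Anapc11*, its RING subunit, higher (0.36, SE 0.11, adjusted p = 0.0264). Single omissions took *Ube2s* up to 0.0552 (without *GFP*-NSPC sample 5 or 6 or *Dbx2*-NSPC sample 1, 2, 5 or 6) and *Anapc11* up to 0.0546 (without *GFP*-NSPC sample 5 or 6 or *Dbx2*-NSPC sample 7). Cohesin and its regulators gave 2 of 16 lower, the ring subunits *Stag2* (-0.46, SE 0.083, adjusted p = 0.000658) and *Smc3* (-0.28, SE 0.079, adjusted p = 0.0215). Condensin II and other chromosome genes gave 0 of 10 in limma, with 1 of 10 at an unadjusted p under 0.05, against 29.2% of all tested genes.

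Among 17 inhibitors of Cdk1 and genes of mitotic exit, 2 were higher (11.8%, against 8.03% of all tested genes) and 1 lower (5.88%, against 7.78%). *Cdkn1a*, the p21 inhibitor of cyclin-dependent kinases, ran from 364 to 1867 CPM in *GFP*-NSPCs (median 1422) and from 1522 to 2651 CPM in *Dbx2*-NSPCs (median 2349), with 1.14 on the log2 scale (SE 0.31, adjusted p = 0.0178). *Gadd45g*, a stress gene whose product can inhibit Cdk1 with cyclin B, ran from 78.7 to 184 CPM (median 95.2) and from 135 to 307 CPM (median 262), with 1.11 (SE 0.19, adjusted p = 0.000358). Both were higher in the *Dbx2*-NSPC sample at all 8 numbers, although the groups overlapped for each. *Ppp2r2a*, a regulatory subunit of phosphatase 2A, was lower (-0.20, SE 0.066, adjusted p = 0.049), but its adjusted p was above 0.05 in 13 of 16 omissions, all but those of *GFP*-NSPC samples 6 and 8 and *Dbx2*-NSPC sample 4 (up to 0.0926).

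Of 12 MuvB, DREAM and B-Myb genes *E2f5*, a repressor subunit of DREAM-type complexes, was lower (-0.64, SE 0.19, adjusted p = 0.0281, up to 0.0586 without *GFP*-NSPC sample 2, 3 or 4 or *Dbx2*-NSPC sample 5 or 8). Of 29 centrosome and spindle microtubule genes 3 were lower, *Nedd1* (-0.88, SE 0.13, adjusted p = 0.000136), which recruits gamma-tubulin, *Haus6* of augmin (-0.48, SE 0.10, adjusted p = 0.00368) and *Plk4*, the kinase of centriole duplication (-0.50, SE 0.13, adjusted p = 0.0115). *Stmn1*, stathmin, which destabilises microtubules, was higher (0.56, SE 0.13, adjusted p = 0.00697). For comparison with S phase, 7 of 34 DNA replication genes were lower (20.6%, against 7.78% of all tested genes) and 0 higher (against 8.03%). Of their fold changes 32 of 34 were negative (94.1%, against 52.7%), and the median was -0.28 against -0.22 for the 59. The 3 with the smallest p were *Prim1* (-0.52, SE 0.12, adjusted p = 0.00548), a primase subunit, *Dut* (-0.48, SE 0.12, adjusted p = 0.00791), which clears dUTP, and *Cdc45* (-0.67, SE 0.17, adjusted p = 0.0124), of the replicative helicase. The replication score was lower in the *Dbx2*-NSPC sample at all 8 numbers, with differences from -0.038 at number 8 to -0.61 at number 5. Whether the 2 lists differed was not tested.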

How the data were processed

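Total RNA of 16 non-adherent NSPC cultures (8 per transgene) was made into 3' tag libraries from 100 ng and read as single reads of 101 bases. Per the labels and the study's methods, the authors aligned reads with STAR 2.5.0a to GRCm38, used FastQC 0.11.8 and edgeR 3.36, and deposited values in CPM, in which a gene's reads are divided by the total of the library. The counting tool and the use of strand are not given in the sources used here. In a 3' assay CPM is not divided by length, and it was used only to compare samples. Whole reads were recovered from the CPM steps (100% of values within 0.006 CPM), so 3 reads equal 0.91 to 1.66 CPM.

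Values were log2(CPM + 0.5), so fold changes of low genes are understated. Genes above 1 CPM in at least 4 of 16 samples were fitted with limma 3.58.1 (R 4.3.3, moderated test, trended variance, two-sided) and adjusted by Benjamini-Hochberg over all 12533, with a threshold of 0.05. The study's methods adjust for the line, which the labels do not give. The number sets were therefore a separate term, the transgene by set interaction, and an alternative. The 59 genes, the lists and the sets were chosen with earlier results of these data known. Values are given for 12 mitotic genes whatever their result, for the 2 genes of smallest p in each role group, for those called higher or different between sets, and for up to 3 called genes of each other list. Further genes, such as those that passed with the block, were named after their values were seen.

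Samples with the same number deviated together from their group means (correlations 0.152 to 0.303, all above 0.1). Numbers were therefore taken to pair samples, and a fit with the number as a block is given where it changed a call. Samples of other numbers in the same set correlated about as much (means 0.161 to 0.242). With set means removed, the same-number correlations were -0.0074 to 0.119. Pairing by number within a set is thus not shown, and calls with the block rest on that assumption. Alternatives changed the pseudocount, filter, scaling, trend, block, set and samples, and edgeR 4.0.16 and DESeq2 1.42.0 were run on the recovered reads. In simulated counts for the 12533 genes, 200 genes of at least 10 CPM were changed 2-fold. Every gene was drawn with the same dispersion and without a separate effect of the number set, unlike in the data. For the transgene, limma called 199 of the 200 and 10 others, and edgeR and DESeq2 each called 199 and 9 others. For the interaction, limma called 92 and 4 others. A 2-fold change was larger than the main-fit fold change of any gene in the mitotic score (-0.66 to 0.40 on the log2 scale). The simulation therefore does not show how often changes of that smaller size, or in genes with the spread of these data, would be called. Promoter windows were taken from RefSeq (GRCm38.p6), gene positions and overlaps from GRCm38 annotation.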

Additional observations from a re-analysis of the deposited data

Results flagged for a closer look

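The 59 genes and the mitotic score in each group made 120 sets of 8 values, and in 10 of them, all of single genes, 1 sample lay far from the others by Dixon's criterion (gap over range above 0.526), where chance gives about 5%. *Dbx2*-NSPC sample 8 was the high one for *Cdca3* (118.85 CPM, others 59.92 to 84.87), *Cenpm* (108.72, others 55.26 to 78.8), *Nuf2* (80.69, others 31.33 to 54.38), *Kif23* (89.81, others 50.73 to 68.62) and *Top2a* (1656.44, others 785.32 to 1175.44). *GFP*-NSPC sample 1 was the low one for *Kif23* (49.15 CPM, others 71.6 to 85.27) and *Top2a* (861.33, others 1201.01 to 1501.11). The remaining high values were *Foxm1* in *GFP*-NSPC sample 2 (77.95 CPM, others 45.09 to 58.98), *Spc25* in *GFP*-NSPC sample 3 (186.7, others 127.9 to 154.84) and *Aurkb* in *GFP*-NSPC sample 4 (20.66, others 11.64 to 15.52). Genes of 1 sample share that library, so these are not independent of each other.

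The fold changes of *Ccnb2* and *Cdc25b* differed between numbers 5 to 8 and numbers 1 to 4, by 1.40 and 0.68 on the log2 scale (limma interaction term, adjusted p = 0.000767 and 0.035). Since the labels do not give the line of each sample, line, experiment and any other feature of the number sets cannot be told apart.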

How the results depend on the processing

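Of the 59 genes 6 were called in either direction, against 1982 of all 12533 tested. The count was 18 with the replicate block (against 2723) and 13 with the number set as a covariate (against 3034). With edgeR and the number set it was 11 (against 2942). It was 14 without *GFP*-NSPC sample 1 (against 2210) and 29 with the block and without number 8 (against 2366). Leaving out each sample in turn gave 3 to 15 (against 1684 to 2210). The other pseudocounts, filters and scalings, no variance trend, edgeR and DESeq2 gave 4 to 7. The 2 differences between number sets became 1 without the variance trend, 5 with the block and 1 to 4 over the omissions. The 21 calls in the other lists became 40 with the block, 32 with the set covariate, 13 in numbers 1 to 4 alone, 45 with the block and without number 8, and 17 to 33 over the omissions. *Dbx2* lost its call in numbers 1 to 4 alone (0.54 on the log2 scale) and otherwise ran from 1.12 to 1.47 over the omissions. The score difference ran from -0.30 to -0.20 over them. None of the 6 called genes changed sign, but 16 others of the 59 did in some setting. In numbers 5 to 8 alone these were *Ccnb2* (0.45), *Prc1* (0.26), *Plk1* (0.14), *Nuf2* (0.10), *Hmmr* (0.092), *Bub3* (0.0078), *Ube2c* (0.0064) and *Pttg1* (-0.036). In numbers 1 to 4 alone they were *Cenpf* (-0.15), *Cenpm* (-0.14), *Spc25* (-0.025), *Cenpk* (0.042), *Cenph* (0.043) and *Cenpw* (0.12). Over the omissions the log2 fold change ran from -0.13 to 0.029 for *Plk1*, -0.15 to 0.0070 for *Cenph*, -0.022 to 0.13 for *Cenpm*, -0.17 to 0.028 for *Nuf2*, -0.041 to 0.10 for *Spc25*, -0.11 to 0.089 for *Cenpf*, -0.10 to 0.016 for *Kif20b*, -0.18 to 0.042 for *Kif20a* and -0.083 to 0.042 for *Prc1*. With the block and without number 8, *Cenpm*, *Spc25* and *Cenpf* were at -0.050, -0.067 and -0.075, *Nuf2* was at 0.000839 with edgeR and the number set and at 0.000783 with DESeq2, and *Prc1* at 0.014 with quantile scaling. The block changed no other call than those counted above. The causes were not tested. The omissions, except that of *GFP*-NSPC sample 1, and the fit without number 8 were chosen after seeing the data. Depth limits the lowest genes most: *Aurkb*, at 5.63 CPM in its lowest sample, rests on few reads there.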
